A study of Mus musculus with 16 samples.

Results

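Iron handling in the retina was described through 10 genes: Lcn2, Cp, Heph, Trf, Tfrc, Slc40a1, Fth1, Hmox1, Steap3 and Steap4. Their members on the array were all non-control probes whose RefSeq accession belongs to one of these genes, which gave 17 of 55681 probes, and 16 of the 17 passed the filter on dim probes. One probe, that with the highest mean over all arrays, stood for each gene among the 19022 genes tested. The list was compiled with earlier results of these arrays known, and Lcn2 leads it for its level in old mutants. Every comparison of the members that uses the 1-year mutants (the genotypes at 1 year, the ages in the mutants, and the difference between the genotype effects) is therefore given as a description, with its standard error and no test.

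RNA was measured on 16 single-colour Agilent arrays, each of retina together with retinal pigment epithelium (RPE), the pigmented layer behind the photoreceptors. The 4 groups of 4 arrays were nm3342 mutants aged 1 month, wild types aged 1 month, nm3342 mutants aged 1 year and wild types aged 1 year. All mice had the C57Bl/6J background and were labelled male, and no further allele or agent is given for any group. The submitters' title proposes this mouse to model serous detachment, a fluid-filled separation of retina from RPE. Which gene carries the nm3342 mutation is not stated in the labels, and the genotypes were not checked against it.

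Iron is needed by photoreceptors and RPE for respiration and for enzymes of the visual cycle, while free ferrous iron promotes oxidative damage. Transferrin (Trf) carries ferric iron to the transferrin receptor (Tfrc), endosomal reductases of the Steap family return the released iron to the ferrous form, ferritin (Fth1) stores it, and ferroportin (Slc40a1) exports it together with the ferroxidases ceruloplasmin (Cp) and hephaestin (Heph). Haem oxygenase 1 (Hmox1) frees iron from haem. Lipocalin 2 (Lcn2), a secreted protein of the acute phase response, binds iron-loaded siderophores. Loss of both Cp and Heph is known to load the mouse retina and RPE with iron.

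Between 82.1% and 89.6% of non-control spots per array gave signal well above background. Levels below are log2 processed intensity minus the array's 75th percentile, so that 0 is the 75th percentile of that array. They can be compared between arrays for one probe but not between probes. A gene was called at a limma Benjamini-Hochberg adjusted p under 0.05 over all genes tested. The 16 kept member probes were well above background on all 16 arrays, and the number of arrays limits the precision. Gnat1, Rpe65 and Glul, which mark rods, RPE and Müller glia, were well above background on all 16 arrays, whereas the RPE marker Best1 was so on 1. On 3 arrays the sex-linked genes went against the male label. They carry the labels of young-mutant replicates 2 and 3 and of old-mutant replicate 1, and Xist there lay between -0.38 and -0.03 against -8.61 to -5.68 on the other 13. Without them, 133 genes in place of 518 were called between the genotypes at 1 month, and 275 in place of 1274 between the ages in the mutants; values without these arrays are given beside the iron genes called in these comparisons. Because each sample mixes tissues, fewer cells of a type and less RNA per cell cannot be told apart. Lens markers had mean levels of 4.56 to 5.15 in 1-month wild types and -3.24 to 1.73 in 1-year wild types. They ran from 1.27 to 6.08 in 1-month mutants and from -0.98 to 5.34 in 1-year mutants. With age in wild types 4 of 7 were called lower, beside 12.4% of all genes in either direction. Cornea and conjunctiva markers ran from -0.12 to 4.52 within the 1-year wild types. The part of both lists in the iron gene values was not tested.

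**Figure D1:**
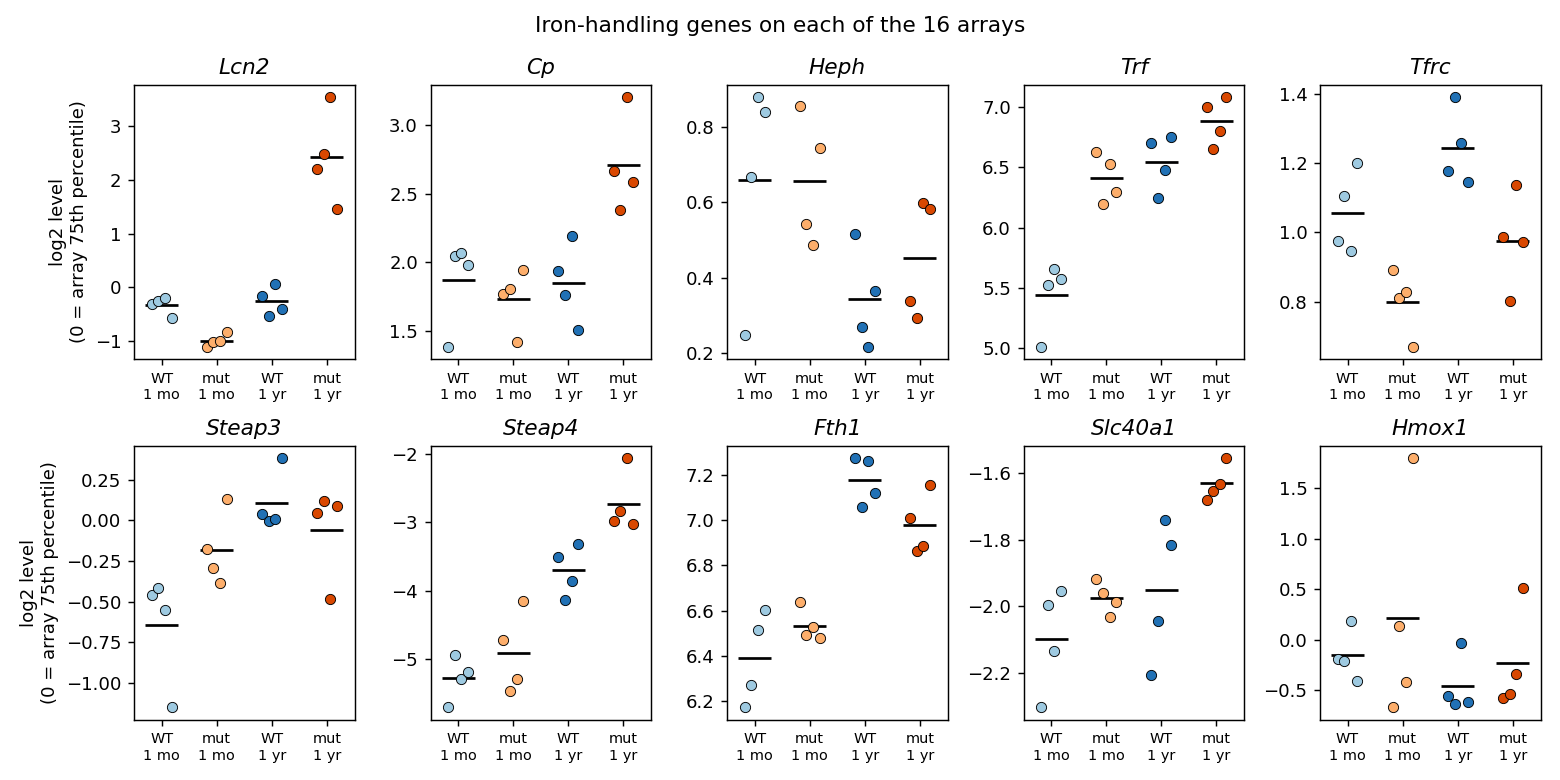
Log2 level (0 is the array's 75th percentile) of the 10 genes on each of the 16 arrays, by group; points are arrays, bars are group means, and each panel has its own vertical scale. The 1-year mutants lie above the other 3 groups for Lcn2, Cp, Steap4 and Slc40a1. The 1-month wild types lie below the others for Trf, and both 1-year groups lie above both 1-month groups for Fth1.

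Lcn2 was the member with the widest range between groups (probe A_55_P2070869, chromosome 2). In the 1-year mutants it read 2.20, 2.47, 3.53 and 1.46, against -0.16, -0.54, 0.06 and -0.40 in the 1-year wild types. The lowest old mutant thus lay above the highest array of any other group. The difference was 2.68 ± 0.30 (SE, n = 4 per group), a 6.39-fold higher level. The 1-year mutants were also the most spread group, with an SD of 0.86 against 0.11 in 1-month mutants, 0.17 in 1-month wild types and 0.27 in 1-year wild types.

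At 1 month the order of Lcn2 was the opposite. The mutants read -1.101, -1.02, -1.003 and -0.83 and the wild types -0.30, -0.25, -0.20 and -0.57, so that every mutant array lay below every wild-type array. The difference of -0.66 ± 0.30 did not pass the test (limma, adjusted p = 0.32), and it was -0.64 ± 0.41 without the 3 arrays with Xist signal. Between the ages, the wild types differed by 0.07 ± 0.30 (limma, adjusted p = 0.911) and their arrays overlapped. The mutants differed by 3.40 ± 0.30, a 10.6-fold higher level at 1 year, with no overlap (3.45 ± 0.43 without those 3 arrays). The genotype effect at 1 year exceeded that at 1 month by 3.33 ± 0.43. Without the 3 arrays that difference was 3.38 ± 0.55 and the 1-year effect 2.75 ± 0.36. Within slide 1 the 1-year effect was 3.24 and within slide 2 it was 2.11, with 2 arrays per group. Ordered by group mean, Lcn2 stood at -0.99 in 1-month mutants, -0.33 in 1-month wild types, -0.26 in 1-year wild types and 2.42 in 1-year mutants, and the middle pair did not differ beyond its spread.

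Lists of markers for other cells were set beside Lcn2, since neutrophils carry the protein in their granules. None of 9 tested neutrophil markers was called at 1 year by limma, beside 0.857% of all genes. Of the 9, 3 had an unadjusted limma p under 0.05. The 9 differences ran from -1.58 to 1.42, 1 positive and 8 negative, with a median of -0.24. The summed level ran from 7.83 to 8.30 in the 1-year mutants and from 8.08 to 8.29 in the 1-year wild types. This sum is set mostly by the brightest markers. The mean log2 level ran from -1.43 to -0.75 in the 1-year mutants and from -1.18 to -0.65 in the 1-year wild types. Ngp, a granule protein gene, was well above background on 0 of the 16 arrays. Of 11 tested genes on the list for reactive glia (Gfap, Osmr and others), 10 read higher in the 1-year mutants, as Lcn2 did. The list also holds Edn2, which stressed photoreceptors make, so that it does not mark glia alone. Edn2 was 4.06 higher in the 1-year mutants. At 1 year 5 of the 11 were called higher and 0 lower, beside 0.857% of all genes in either direction. The marker lists, like the members, were chosen with earlier results of these arrays known. Nothing is therefore read from their counts in the 1-year mutants. Summed levels were 5.42 to 5.89 against 4.37 to 5.05 in the 1-year wild types. With age in wild types, where Lcn2 changed by 0.07, 5 were called higher, beside 7.31% of all genes, and 1 lower. At 1 month, where Lcn2 differed by -0.66, 9 read higher in mutants (median 0.26) and 1 was called lower. The part of these genes in the Lcn2 difference was not tested.

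The promoters of Lcn2 and Steap4 are shown because both genes were highest in the old mutants and RefSeq (GRCm38.p6) gives 1 start for each. Cp, also highest there, has 2 starts in that table and its windows are not shown. For Slc40a1, whose 1-year mutants also lay above all other arrays, no promoter was matched. The 250 bases before the start are shown 5′ to 3′ on the gene's strand, for Lcn2 at chr2:32387740-32387989 on the minus strand and for Steap4 at chr5:7960222-7960471 on the plus strand. Capitals mark matches to simplified letters for sites of acute phase factors: TTGCNNAA for C/EBP, TTCNNNGAA for STAT and GGGNNTNCC for kappa B, searched on both strands. The kappa B letters are 1 loose form of 9 bases. They miss longer kappa B sites, and a match to them need not be a full site.
Lcn2: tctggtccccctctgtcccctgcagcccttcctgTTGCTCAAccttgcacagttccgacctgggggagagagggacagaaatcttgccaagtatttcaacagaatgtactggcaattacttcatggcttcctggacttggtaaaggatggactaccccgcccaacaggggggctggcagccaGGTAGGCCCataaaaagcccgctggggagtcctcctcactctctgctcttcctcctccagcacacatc
Steap4: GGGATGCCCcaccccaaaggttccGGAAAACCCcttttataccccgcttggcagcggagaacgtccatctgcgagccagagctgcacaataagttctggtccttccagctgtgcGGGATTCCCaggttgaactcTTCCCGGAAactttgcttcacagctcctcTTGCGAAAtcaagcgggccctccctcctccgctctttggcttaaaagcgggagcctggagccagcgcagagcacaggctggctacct
The Lcn2 window held 1 C/EBP match, ending 208 bases before the start, and 1 kappa B match, ending 59 bases before it, with no STAT letters in this window. The Steap4 window held 1 STAT match ending 107 bases before the start, 1 C/EBP match ending 79 bases before it and 3 kappa B matches, ending 241, 217 and 127 bases before it. Such letters are common. Of 32841 promoter windows of the same length, 9.57% held the C/EBP letters, 7.02% the STAT letters and 14% the kappa B letters. A match describes the sequence and shows no binding. RefSeq promoters were matched for 6 of the 10 genes (Lcn2, Cp, Tfrc, Fth1, Steap3 and Steap4). Of those not shown, a Cp window held 1 C/EBP match, a Fth1 window held 2, and a Steap3 window held 1 C/EBP and 1 kappa B match; the Tfrc windows held none of these letters.

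Steap4, a metalloreductase of the plasma membrane and endosomes, was higher in old animals of both genotypes (probe A_51_P143893, chromosome 5). The wild types read -5.71, -4.94, -5.29 and -5.19 at 1 month and -3.51, -4.13, -3.86 and -3.31 at 1 year. The mutants read -4.73, -5.48, -5.29 and -4.15 at 1 month and -2.98, -2.83, -2.06 and -3.03 at 1 year. Within each genotype every 1-year array lay above every 1-month array. The age change was 1.58 ± 0.29 in wild types (2.99-fold; limma, adjusted p = 0.00273) and 2.19 ± 0.29 in mutants (4.56-fold). Some 1-month levels lay near the floor of well-detected signal. Wild-type 1-month replicate 1 read -5.71, and the dimmest spot well above background on that array lay at -6.19. For mutant 1-month replicate 2 these values were -5.48 and -6.00. Without the 3 arrays with Xist signal the mutant change was 1.80 ± 0.33. With normexp background correction the changes were smaller, 0.51 in wild types (limma, adjusted p = 0.0451) and 0.97 in mutants. On slide 1 alone the wild-type change was 1.33 and was not called (limma, adjusted p = 0.279).

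Between genotypes Steap4 differed by 0.37 ± 0.29 at 1 month (limma, adjusted p = 0.606), and the arrays overlapped. At 1 year it was 0.98 ± 0.29 higher in mutants (1.97-fold), all 4 mutants above all 4 wild types. Its 1-year difference was 1.55 on slide 1 and 0.41 on slide 2, each with 2 arrays per group. The 1-year mutants thus held the highest Steap4 levels and the 1-month groups, which did not differ beyond their spread, the lowest.

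Steap3, the endosomal reductase of the transferrin cycle, also rose with age in the wild types (probe A_55_P2096883, chromosome 1). It read -0.46, -0.42, -0.55 and -1.15 in the 1-month wild types and 0.04, -0.0018, 0.01 and 0.38 in the 1-year wild types, without overlap. The change was 0.75 ± 0.18 (1.68-fold; limma, adjusted p = 0.0128). In the mutants it read -0.18, -0.29, -0.39 and 0.13 at 1 month and 0.05, 0.12, -0.49 and 0.09 at 1 year, which overlapped (0.12 ± 0.18). At 1 month the mutants lay above the wild types on every array, by 0.46 ± 0.18, which did not pass the test (limma, adjusted p = 0.227). At 1 year the difference was -0.16 ± 0.18. A second Steap3 probe (A_55_P2096887) gave a smaller age change in wild types, 0.21 ± 0.16 (limma over all kept probes, adjusted p = 0.482), so that the Steap3 call rests on one of its 2 probes. With the mean of both probes the change was 0.48 and was no longer called (limma, adjusted p = 0.0582).

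Ceruloplasmin, the secreted and membrane-anchored copper ferroxidase, was highest in the old mutants (probe A_55_P2111302, chromosome 3). Cp read 2.67, 2.38, 3.20 and 2.59 in the 1-year mutants and 1.94, 1.77, 2.19 and 1.51 in the 1-year wild types, so that the groups did not overlap. The difference was 0.86 ± 0.20, or 1.81-fold. In the 1-month mutants Cp read 1.77, 1.80, 1.42 and 1.95, and in the 1-month wild types 1.39, 2.05, 2.07 and 1.98. These overlapped, with a difference of -0.14 ± 0.20 (limma, adjusted p = 0.809).

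Between the ages Cp was higher by 0.98 ± 0.20 in old mutants (1.97-fold), and every old mutant lay above every young one. Without the 3 arrays with Xist signal the change was 0.87 ± 0.27. The wild types differed by -0.020 ± 0.20 between the ages (limma, adjusted p = 0.965). The difference between the genotype effects at the 2 ages was 1.00 ± 0.28.

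Hephaestin, the membrane-bound ferroxidase, was called neither at 1 month nor with age in the wild types by the probe that stands for it. The Heph probe that stands for the gene (A_55_P1994194, chromosome X) read 0.86, 0.54, 0.49 and 0.75 in 1-month mutants, 0.25, 0.67, 0.88 and 0.84 in 1-month wild types, 0.34, 0.29, 0.60 and 0.58 in 1-year mutants and 0.52, 0.27, 0.22 and 0.37 in 1-year wild types. The genotypes overlapped at both ages. The age difference in the wild types was -0.32 ± 0.14 (limma, adjusted p = 0.157) as processed here. It was called without wild-type 1-month replicate 1 (-0.45; limma, adjusted p = 0.0270), with array weights (-0.40; limma, adjusted p = 0.0215) and with the mean of the Heph probes (-0.31 ± 0.07; limma, adjusted p = 0.0101). A second Heph probe (A_55_P1994190) gave the larger difference at 1 month. Its 1-month mean was -3.67 ± 0.23 (SD, n = 4) in mutants and -3.23 ± 0.25 in wild types, a difference of -0.44 ± 0.13 (SE) that did not pass (limma over all kept probes, adjusted p = 0.148). At 1 year the signs of the probes differed, 0.11 for the first and -0.37 for the second. The third Heph probe (A_52_P498219) was well above background on 1 of 16 arrays and was left out by the filter.

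Transferrin was the one member called between the genotypes at 1 month, against 2.72% of all genes called there in either direction and 2.03% called higher in mutants. The Trf probe A_55_P2037584 (chromosome 9) read 6.63, 6.19, 6.52 and 6.29 in the 1-month mutants and 5.01, 5.52, 5.66 and 5.58 in the 1-month wild types. No mutant reached down to the wild types. The difference was 0.97 ± 0.16, a 1.95-fold higher level (limma, adjusted p = 0.00522). Without mutant replicates 2 and 3, which carried Xist signal, it was 1.02 ± 0.21 (limma, adjusted p = 0.0537). The second Trf probe (A_55_P2037585) gave 1.06 ± 0.17 (limma over all kept probes, adjusted p = 0.00815). Within slide 1 the difference was 0.98 and within slide 2 it was 0.96, each with 2 arrays per group.

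With age Trf rose in the wild types to 6.70, 6.24, 6.48 and 6.75, a change of 1.102 ± 0.16 (2.15-fold; limma, adjusted p = 0.000344), and the ages did not overlap. In the mutants it reached 6.999, 6.65, 6.80 and 7.08 at 1 year. These also lay above all 1-month mutants, with a change of 0.47 ± 0.16. At 1 year the genotypes overlapped, with mutants 0.34 ± 0.16 higher. The lowest Trf levels were therefore those of the 1-month wild types, and the 1-month mutants and 1-year wild types overlapped.

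RPE cells express transferrin, and the list of RPE markers moved with Trf between the 1-month groups. Of 11 RPE markers tested, 5 were called higher in the 1-month mutants and 0 lower, where 2.03% of all genes were called higher. Their median difference was 0.66. Their mean level ran from 3.85 to 4.34 in the 1-month mutants, 3.24 to 3.85 in the 1-month wild types, 3.59 to 4.05 in the 1-year mutants and 3.93 to 4.30 in the 1-year wild types. Their summed levels ran from 8.46 to 8.90, 7.76 to 8.34, 8.17 to 8.56 and 8.43 to 8.80 in the same order. The part of these markers in the Trf difference was not tested. Oligodendrocytes, which also make transferrin, had 0 of 8 tested markers called by limma at 1 month, with a median difference of -0.13, and their marker Opalin was well above background on 0 arrays.

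The transferrin receptor read lower in mutants at both ages. The Tfrc probe A_52_P228236 (chromosome 16, printed 10 times on each array) read 0.89, 0.81, 0.83 and 0.67 in 1-month mutants and 0.98, 1.11, 0.95 and 1.20 in 1-month wild types. It read 0.99, 0.80, 1.14 and 0.97 in 1-year mutants and 1.18, 1.39, 1.26 and 1.15 in 1-year wild types. The genotypes did not overlap at either age, and the 2 comparisons share no arrays. The difference was -0.26 ± 0.09 at 1 month (limma, adjusted p = 0.169), where it was -0.28 ± 0.12 without the 3 arrays with Xist signal, and -0.27 ± 0.09 at 1 year. The other Tfrc probes gave 0.05 ± 0.16 and -0.05 ± 0.11 at 1 month and -0.22 and -0.21 at 1 year, so the lower reading at 1 month was that of 1 of 3 probes.

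Ferritin heavy chain, the subunit that oxidises iron for storage, was higher at 1 year in both genotypes. The Fth1 probe (A_52_P49601, chromosome 19) read 6.17, 6.27, 6.51 and 6.60 in 1-month wild types and 7.28, 7.06, 7.26 and 7.12 in 1-year wild types. In the mutants it read 6.64, 6.49, 6.53 and 6.48 at 1 month and 7.01, 6.87, 6.88 and 7.15 at 1 year. No young array of either genotype reached an old one. The wild types rose by 0.79 ± 0.10 (1.73-fold; limma, adjusted p = 0.000133) and the mutants were higher by 0.45 ± 0.10 (1.36-fold).

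The Fth1 change in the mutants was 0.41 ± 0.15 without the 3 arrays with Xist signal. Between genotypes Fth1 differed by 0.14 ± 0.10 at 1 month (limma, adjusted p = 0.547) and by -0.20 ± 0.10 at 1 year, and the groups overlapped at both ages. Ferritin genes have processed copies in the genome, and the array cannot tell signal from such copies apart from that of Fth1.

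Ferroportin, the iron exporter, showed small shifts. Slc40a1 (probe A_51_P389988, chromosome 1) read -1.92, -1.96, -2.03 and -1.99 in 1-month mutants and -1.68, -1.66, -1.63 and -1.56 in 1-year mutants, which did not overlap (0.34 ± 0.10). The 1-month wild types read -2.30, -1.995, -2.13 and -1.95 and the 1-year wild types -2.21, -2.04, -1.74 and -1.82, which overlapped (0.14 ± 0.10; limma, adjusted p = 0.388). The genotype difference was 0.12 ± 0.10 at 1 month (limma, adjusted p = 0.621). At 1 year it was 0.32 ± 0.10, or 1.25-fold, with all mutants above all wild types. Macrophages and microglia express ferroportin. Their 11 tested markers had a mean level of -0.01 to 0.19 in the 1-year mutants and -0.31 to 0.11 in the 1-year wild types. At 1 year 1 was called higher, beside 0.857% of all genes called in either direction. At 1 month 5 of the 11 were called higher in mutants, where 2.03% of all genes were. Mean levels were then -0.68 to -0.44 in mutants and -1.14 to -0.99 in wild types. With age in the wild types 6 markers were called higher, where 7.31% of all genes were. Their part in the Slc40a1 values was not tested.

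Haem oxygenase 1 was set apart by single arrays. Hmox1 (probe A_51_P263965, chromosome 8) read -0.67, 0.13, -0.42 and 1.80 in 1-month mutants, -0.19, -0.21, 0.19 and -0.41 in 1-month wild types, -0.58, -0.53, -0.34 and 0.51 in 1-year mutants and -0.55, -0.63, -0.03 and -0.62 in 1-year wild types. The groups overlapped in all 4 comparisons, and neither the 1-month contrast nor that of age in the wild types was called by limma. The genotype difference at 1 month was 0.37 ± 0.42 (limma, adjusted p = 0.738), and it was -0.16 without mutant replicate 4, the array at 1.80. The same array stood highest on the second Hmox1 probe (A_55_P2029687), at -1.32 against -2.85 to -2.56 in the other 1-month mutants. It also held the highest mean of the erythroid marker list (haemoglobins, Alas2, Slc4a1), 4.69 against 0.63 to 1.45 in the other 1-month mutants. In the 1-month wild types that mean ran from -1.18 to 0.45, below all 1-month mutants. Of 6 tested erythroid markers 0 were called at 1 month, beside 2.72% of all genes. Their median difference was 2.27, and 5 had an unadjusted limma p under 0.05. The part of blood RNA in the Hmox1 reading was not tested.

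**Figure D2:**
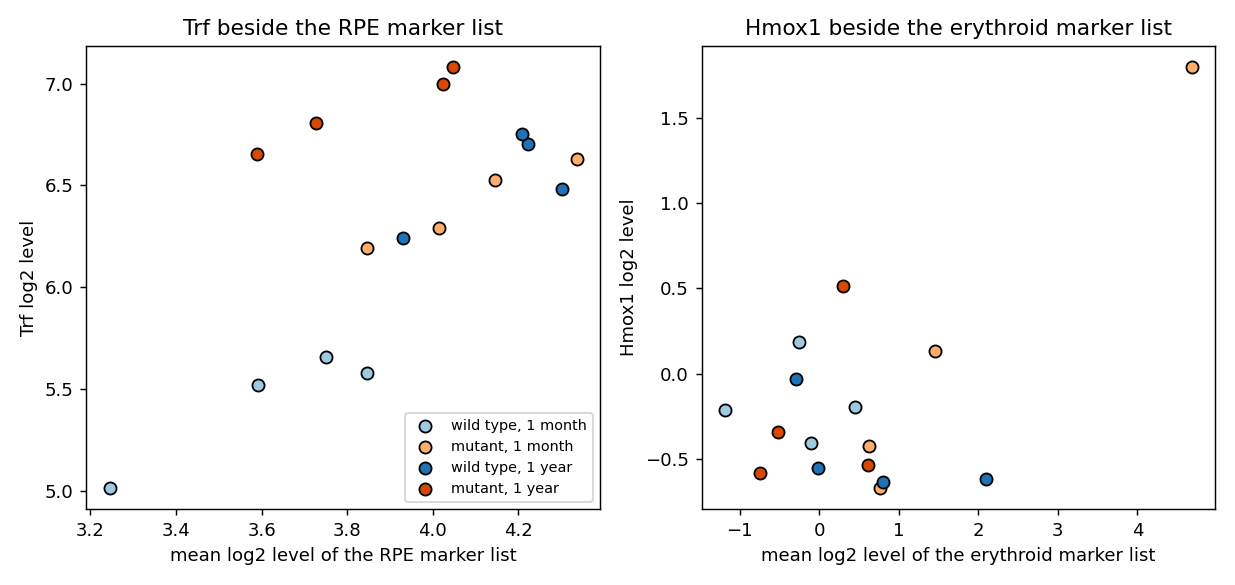
Log2 level of Trf against the mean log2 level of the RPE marker list (left) and of Hmox1 against that of the erythroid marker list (right), 1 point per array. The 1-month wild types hold the lowest Trf levels (5.01 to 5.66), the 1-year mutants reach 6.65 to 7.08 at RPE means of 3.59 to 4.05, and 1 young mutant stands apart on the right at an erythroid mean of 4.69.

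Across the list, 1 of 10 members was called at 1 month (Trf), and the genotypes did not overlap for 4 (Trf and Steap3 higher, Lcn2 and Tfrc lower in mutants), where 8.53% of all genes did not overlap. The members' median difference was 0.13 against 0.02 over all genes. At 1 year 1 of 10 was called (Lcn2), beside 0.857% of all genes, and 5 did not overlap (Lcn2, Cp, Steap4 and Slc40a1 higher, Tfrc lower), beside 7.83%. The median was 0.27 against -0.01. For the difference between the genotype effects 1 of 10 was called (Lcn2), beside 0.421%. As values of the 1-year mutants chose the list, nothing is read from these counts, nor from those with age in the mutants below.

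With age, 4 of 10 members were called in the wild types (Steap4, Trf, Fth1 and Steap3), against 12.4% of all genes in either direction, all 4 higher, where 7.31% of all genes were called higher. These 4 were also those whose ages did not overlap, against 18.9%. In the mutants 4 of 10 were called (Lcn2, Steap4, Cp and Fth1), beside 6.7% of all genes, all 4 higher, where 3.77% were called higher. The ages did not overlap for 6 in the mutants, beside 13.8%. The median age difference of the members was 0.17 in wild types and 0.39 in mutants, and over all genes it was -0.03 and -0.05. The age contrasts use the same arrays as the genotype contrasts and repeat part of their information. Without the 3 arrays with Xist signal the counts were 0 at 1 month, 1 at 1 year, 4 with age in wild types and 2 with age in mutants. Of all 19022 genes 133, 78, 1812 and 275 were called in the same order.

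**Figure D3:**
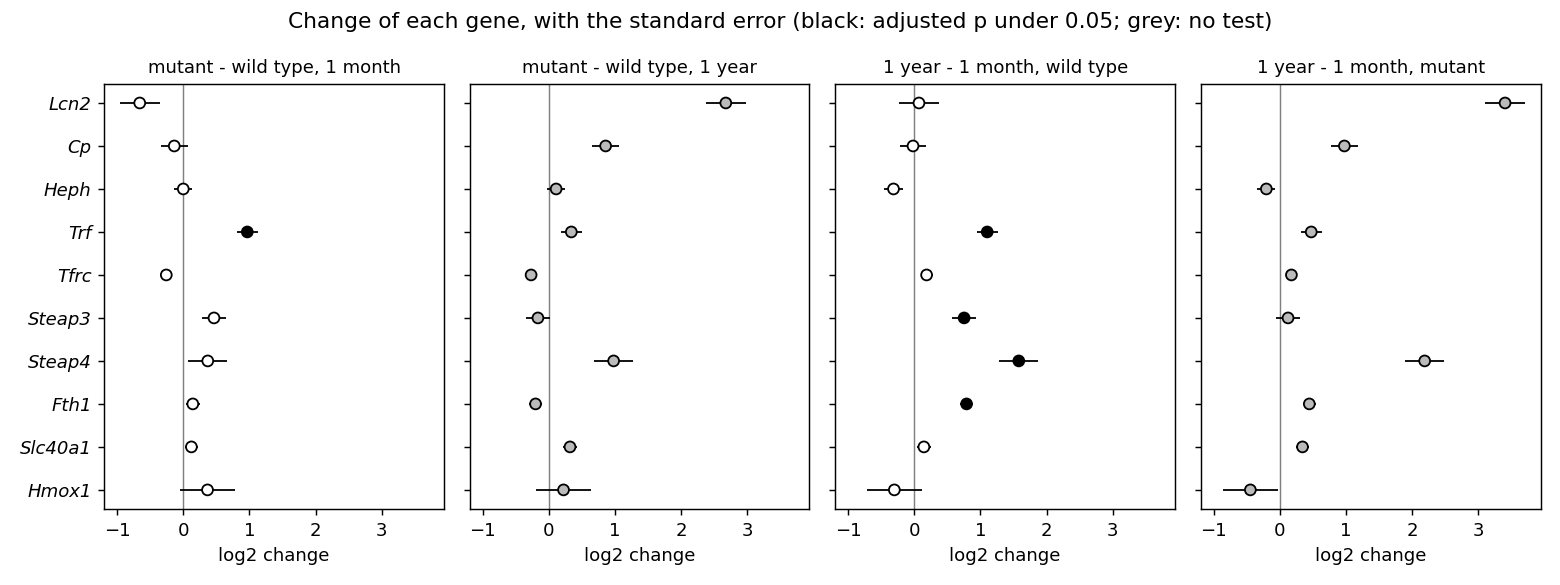
Log2 change of each gene in 4 contrasts, with bars for the standard error; black points passed a limma adjusted p under 0.05, white points did not, and grey points mark the 2 contrasts that use the 1-year mutants and carry no test. Trf alone is black at 1 month (0.97) and 4 genes are black with age in wild types, while Lcn2 lies farthest from 0 in both grey panels (2.68 and 3.40).

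**Figure D4:**
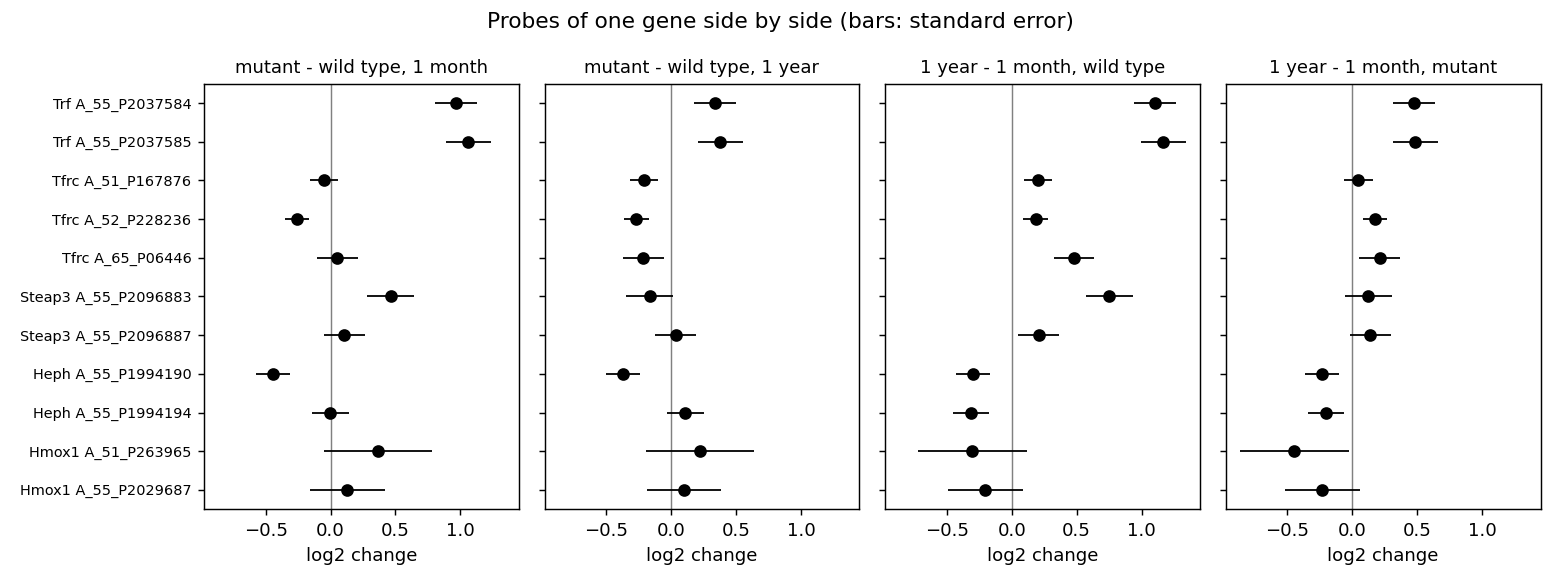
Log2 change, with its standard error, for each kept probe of the 5 genes that have 2 or more. The Trf probes lie together in every panel, whereas Steap3 probes part in the wild-type age contrast (0.75 and 0.21) and Heph probes part at 1 month (-0.00066 and -0.44).

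The wider pathway was read from 64 further genes, of which 63 were tested. They cover iron uptake, storage, regulation, export, haem and mitochondrial iron, and genes grouped with Lcn2. At 1 month 1 was called higher in mutants and 1 lower, 2 of 63 beside 2.72% of all genes, with a median of 0.04. Flvcr2, a haem and choline transporter of endothelium, read 1.66, 1.35, 1.56 and 1.495 in the 1-month mutants and 0.38, 0.78, 0.82 and 0.79 in the wild types, without overlap (0.82 ± 0.14, 1.77-fold; limma, adjusted p = 0.00612). Slc25a28, a mitochondrial iron importer, was lower in mutants (-0.27 ± 0.07; limma, adjusted p = 0.0434). Without the 3 arrays with Xist signal, a setting chosen for these genes after seeing the data, neither was called: Flvcr2 differed by 0.89 ± 0.18 (limma, adjusted p = 0.0592) and Slc25a28 by -0.24 ± 0.09 (limma, adjusted p = 0.412). At 1 year 0 of the 63 were called by limma, beside 0.857% of all genes, and 6 had an unadjusted p under 0.05.

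None of the 5 genes grouped with Lcn2 (Slc22a17, Lrp2, Bdh2, Ltf and Mmp9) was called between genotypes by limma. Ltf, lactoferrin, is also on the neutrophil marker list and is not a partner of Lcn2. Their differences ran from -0.12 to 2.27 at 1 month and from -0.23 to 1.72 at 1 year. At 1 month 1 of the 5 had an unadjusted limma p under 0.05. The Lcn2 receptor gene Slc22a17 differed by 0.01 ± 0.13 at 1 month and 0.20 ± 0.13 at 1 year, and Lrp2 (megalin), which also takes up Lcn2, by -0.12 ± 0.11 and -0.23 ± 0.11. The iron importer Slc11a2 (DMT1) differed by 0.60 ± 0.16 and 0.41 ± 0.16, not called at either age. The light ferritin chain Ftl1 differed by 0.0030 ± 0.15 and -0.23 ± 0.15, without a call. The iron regulatory protein gene Aco1 differed by -0.26 ± 0.19 at 1 month and 0.0060 ± 0.19 at 1 year, and Ireb2, the second such gene, by 0.07 ± 0.10 and 0.02 ± 0.10, none called.

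With age the wild types had 6 of the 63 called higher and 3 lower, a share near the 12.4% of all genes called in either direction. Those higher were Hfe, the partner of transferrin receptors in iron sensing (0.86 ± 0.10; limma, adjusted p = 5.82e-05), the biliverdin reductase Blvrb (0.89), the haemopexin receptor Lrp1 (0.46), the reductase Steap2 (0.45), Ftl1 (0.65) and Flvcr2 (0.55). Those lower were Tfr2, a second transferrin receptor (-0.57 ± 0.15; limma, adjusted p = 0.0203), Slc25a28 (-0.24) and Ppox, an enzyme of haem synthesis (-0.32). In the mutants 3 of 63 were called higher with age and 0 lower, beside 6.7% of all genes: Hfe (0.69 ± 0.10; limma, adjusted p = 0.000656), Steap2 (0.40) and Blvrb (0.52). Without the 3 arrays with Xist signal none of the 3 was called by limma, at 0.62 ± 0.14 for Hfe (limma, adjusted p = 0.0551), 0.45 ± 0.14 for Steap2 and 0.46 ± 0.21 for Blvrb.

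**Figure D5:**
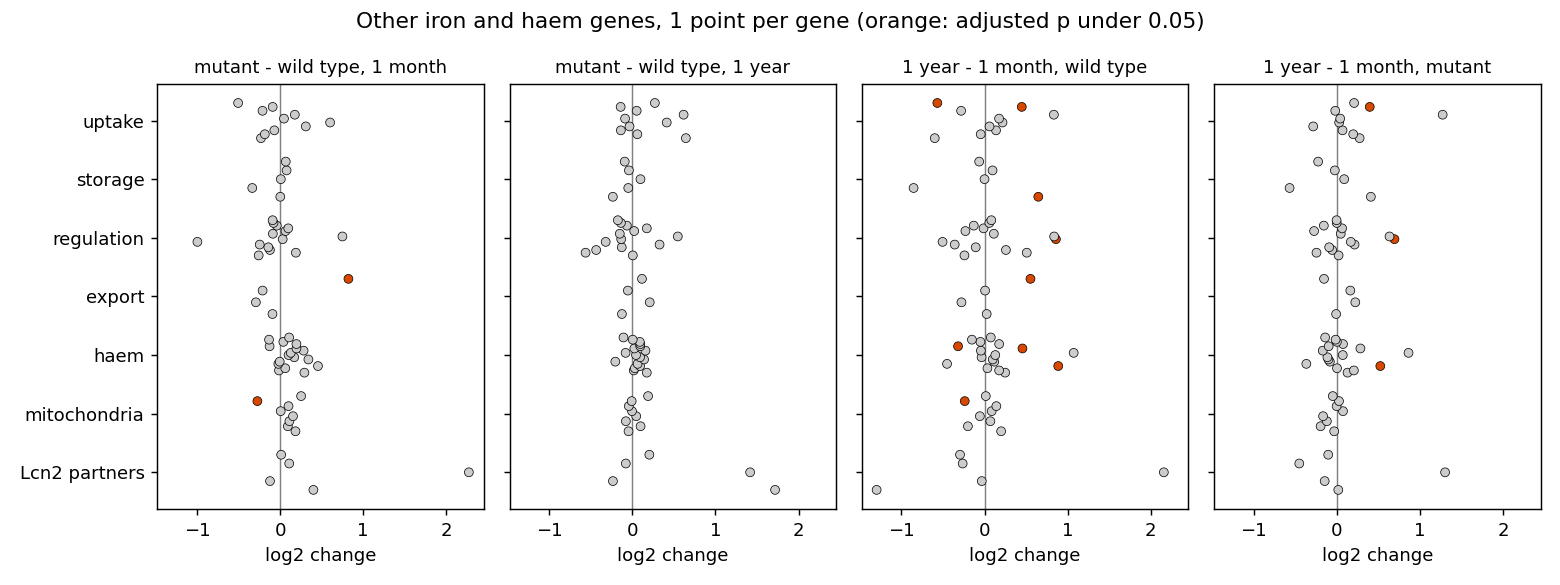
Log2 change of the 63 further iron and haem genes in 4 contrasts, grouped by role, 1 point per gene; orange points passed a limma adjusted p under 0.05. Orange points number 2 at 1 month, 0 at 1 year, 9 with age in wild types and 3 with age in mutants. The row named Lcn2 partners also holds Ltf, a neutrophil marker.

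The genes most like Lcn2 over the 16 arrays, by Pearson correlation of log2 levels, were Gadl1 (0.94), Calca (0.94), Nudt6 (0.93), Ppp1r1b (0.91) and Edn2 (0.90). Each had its highest levels in the 1-year mutants. Edn2, the endothelin made by stressed photoreceptors, read 2.11, 1.94, 2.76 and 2.05 there and from -2.18 to -0.69 on the other arrays. Of the members, Cp (0.88) and Steap4 (0.81) were nearest to Lcn2, followed by Slc40a1 (0.70), while Tfrc (0.05) and Heph (-0.25) were not alike. These are descriptions over arrays that share the same 4 groups.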

How the data were processed

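Per the labels' protocols, RNA came from both retinas and RPE (mirVana kit) and was labelled with Cy3. Spot intensity in the scanner files was background-corrected by the authors with Agilent Feature Extraction (version 11.0.1.1 in the submitters' processing notes). The authors also deposited a table of log2 values, used here as an alternative; from its values, its columns share 1 distribution, as after quantile normalization, and the software is not given in the sources used here. Each array held 62976 spots, 59305 of them not controls. Outlier spots were left out, the processed intensity was log2 transformed, each array's 75th percentile (603 to 994) was subtracted, and spots of a probe were averaged. Accessions were matched to RefSeq (GRCm38.p6, names and chromosomes only), which named 27235 probes by 1 gene. A probe was kept (49230) if it stood well above background on 4 or more of the 16 arrays, and the probe with the highest mean stood for its gene (19022 genes).

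One model of 4 group means was fitted with limma 3.58.1 (R 4.3.3, statmod 1.5.0) over all 16 arrays, with moderated variances and two-sided tests, and was tested on simulated data. Errors beside a change are standard errors, and those beside a group mean are SDs. The comparisons were the genotypes at each age, the ages in each genotype and the difference between the genotype effects. The protocol names 4 mice per time point but does not say how they were housed or related, so p-values measure the spread between these samples. The members and all lists were chosen with earlier results of these data known. Named are all 10 members with their probes, the called genes of the other iron lists and otherwise the first 2 as written, and the 5 genes most correlated with Lcn2. Genes outside that rule are markers or partners given as values.

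Each of the 2 slides carried 8 arrays, 2 per group, per the file headers; on slide 2 row and genotype coincide. Replicate numbers are shared between groups but did not pair the arrays: over 24 pairs of same-numbered arrays the correlation of deviations ran from -0.54 to 0.30, with 5 over 0.1. Alternatives changed the background correction (normexp with offset 50, on median signals, since the files used hold no mean signal), normalization, values, filter, probe rule, slide, array row, replicate block, array weights, the 3 arrays with Xist signal, and single arrays. Promoters were searched over 250 bases.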

Additional observations from a re-analysis of the deposited data

Results flagged for a closer look

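Over 68 sets of 4 arrays (17 probes in 4 groups), 6 held an array far from the other 3 by Dixon's criterion; chance gives about 1 in 20. The Cp probe read 1.39 in wild-type 1-month replicate 1 against 1.98 to 2.07 in the other 1-month wild types. The Hmox1 probe A_51_P263965 read -0.030 in wild-type 1-year replicate 3 against -0.63 to -0.55. Steap3 probe A_55_P2096883 read -0.49 in mutant 1-year replicate 3 against 0.05 to 0.12, and 0.38 in wild-type 1-year replicate 4 against -0.0018 to 0.04. The second Steap3 probe, A_55_P2096887, stood out on that same wild-type array, at -1.34 against -1.74 to -1.68. The Tfrc probe A_65_P06446 read -0.98 in mutant 1-month replicate 4 against -0.29 to -0.25; this is the array with the highest Hmox1 and erythroid marker levels.

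The genotype effect on Lcn2 differed between the ages by 3.33 on the log2 scale. This is a description, since the effects part mainly through the 1-year mutant values that chose the gene.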

How the results depend on the processing

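With 4 arrays per group the counts of members called were small, and under the alternatives 104 counts stayed within 1.5 times those reported while 19 did not. Counts of members that use the 1-year mutants are descriptions here too, and nothing is read from them. With the replicate block the counts were the same (1 at 1 month, 1 at 1 year, 1 for the difference, 4 with age in each genotype), and the block changed no member's call. Leaving out single arrays moved no count of members past 1.5 times. For the 1-year genotype comparison (1 called), the count was 2 with normexp, quantile normalization, the deposited values or array row, 5 with array weights, and 0 on slide 1 or slide 2 alone. Of all 19022 genes, 163 were called there as reported. The number was 155 with normexp, 215 with quantile normalization, 216 with the deposited values and 138 with array row. It was 723 with array weights, 10 on slide 1 and 12 on slide 2. At 1 month (1 called) the count of members was 0 on either slide alone and 0 without the 3 arrays with Xist signal, and 2 with array weights. Of all genes 518 were called there, against 1 on slide 1, 17 on slide 2, 133 without the 3 arrays and 3785 with array weights. For the difference (1 called) the count of members was 0 under the same 3 settings and 2 with array weights. Of all genes 80 were called, against 1 on slide 1, 0 on slide 2, 12 without the 3 arrays and 859 with array weights. With age in wild types (4 called) the count of members was 1 on slide 1 alone, where 189 of all genes in place of 2352 were called. With age in mutants (4 called) the count of members was 1 on slide 1 alone, 2 on slide 2 alone and 2 without the 3 arrays. Of all genes 37, 162 and 275 were called under these settings in place of 1274. A slide alone holds 8 of the 16 arrays; for the other settings the cause was not tested.

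The members whose sign turned under an alternative were uncalled in the comparison concerned. Heph at 1 month was 0.0047 with quantile normalization, 0.0049 with deposited values, 0.19 on slide 1, 0.14 without the 3 arrays, 0.11 with Xist pattern as a covariate, 0.084 with array row and -0.14 to 0.073 when single arrays were left out. Heph at 1 year was -0.13 with the mean of its probes. Cp at 1 month was 0.16 on slide 1 and 0.052 with array row; with age in wild types Cp was 0.26 on slide 1 and -0.18 to 0.094 without single arrays. Hmox1 at 1 month was -0.44 on slide 2, -0.020 with array weights and -0.16 to 0.66 without single arrays. Its difference between ages was 0.99 on slide 2, 0.40 with array weights and -0.44 to 0.39 without single arrays, and its age change in mutants was 0.51 on slide 2 and -0.74 to 0.084 without single arrays. Hmox1 at 1 year was -0.11 on slide 1 and -0.028 to 0.36 without single arrays. Steap3 with age in mutants was -0.10 on slide 1 and -0.069 without the 3 arrays. The Tfrc difference between ages was 0.033 on slide 2, 0.0050 without the 3 arrays and -0.065 to 0.047 without single arrays. With array weights Steap4 at 1 month was -0.076 and Lcn2 with age in wild types was -0.089; the latter was -0.037 to 0.16 without single arrays.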
